A study of Homo sapiens with 30 samples.

Results

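The data compared here were the open chromatin of 2 neural populations grown from the same day 2 cells in different media. Human embryonic stem cells of the H1 line (hPSC, day 0) had been taken through definitive ectoderm (DE, day 1) to anterior neural ectoderm (aNE, day 2), and from there into telencephalon medium (aNE_T), midbrain medium (aNE_M) or hindbrain medium (aNE_H) until day 4. Posterior neural ectoderm (pNE, day 2) and its 3 derivatives (pNE_T, pNE_M, pNE_H, day 4) formed a parallel branch. All cells were wild-type. OmniATAC-seq, in which a transposase inserts sequencing adapters where DNA is not wrapped in nucleosomes, was run on 50000 cells per library, with 3 biological replicates per population, and 1 list of peaks per population was deposited.

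All the anterior groups shared the inhibitors of the day 1 and day 2 media. On day 1 these were A8301 against ACTIVIN/NODAL/TGF-beta receptors, Trametinib against MEK, C59 against WNT secretion and LDN193189 against BMP receptors. The day 2 anterior medium had A8301, LDN193189, C59 and Thiazovivin, a survival aid, and cells bound for day 4 were plated at 75000 per square cm. Posterior cells bound for day 4 were plated at 150000 per square cm, so origin and plating density differ together. The posterior day 2 medium instead added TTNPB, a retinoic acid receptor agonist, at 50 nM, with FGF2 and XAV939, a tankyrase inhibitor that dampens WNT signalling. The telencephalon medium on day 3 held XAV939 at 1 µM, LDN193189 at 100 nM and FGF2 at 20 ng/mL. The labels break off within that recipe, so the agents that set the midbrain and hindbrain media apart are not stated here. A single cell line was used, so nothing below speaks to variation between lines.

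Peaks of all 10 lists on chromosomes 1 to 22 were merged wherever they overlapped by at least 1 bp, which gave 476170 regions, and a list was called open at a region where it had a peak. Of these, 236612 regions were open in aNE_T, in aNE_H or in both. The comparison rests on the 106587 of them that were open in 1 list and closed in the other. In aNE_T alone 51442 regions were open (21.7% of those open in either list), and in aNE_H alone 55145 were open (23.3%), while 130025 were open in both. With 1 list per population there is no spread between replicates to set against any of these counts, so no test was run, and every difference below is a difference between 2 lists. Closed means that no peak was listed, not that no signal was present.

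As background, the neural plate is patterned along its head-to-tail axis by WNT, FGF and retinoic acid signals. Low WNT activity at the front permits forebrain identity, marked by SIX3 and HESX1. Higher WNT activity favours midbrain and hindbrain, whose border is an FGF8- and WNT1-producing organiser marked by EN1, EN2 and PAX2. Retinoic acid and posterior FGF switch on HOX genes in the hindbrain and spinal cord. Many such genes are controlled by enhancers far from their promoters, which appear as open chromatin outside promoters.

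The labels were checked against promoters. A promoter here is the window from 250 bases before to 50 after the 1 start site per gene that the RefSeq promoter table (GRCh38.p14) gives. Promoters of the forebrain genes SIX6, LHX2, HESX1 and OTX1 were open in all 10 lists, as were those of EN2 and WNT1 (midbrain and its border) and of GBX2, MEIS1, NR2F1 and RARB (hindbrain and retinoid genes). These promoters therefore do not set the 2 populations apart. The HOXA2 promoter was open in pNE, pNE_T, pNE_M and pNE_H and closed in aNE_T, aNE_M and aNE_H. The HOXB1 promoter was closed in the same 3 lists and open in the other 7, and the EGR2 promoter, of a gene of hindbrain rhombomeres, was closed in all 10. Of the forebrain and midbrain gene OTX2, the promoter window was closed in aNE_T and aNE_H and open in DE alone. LMX1B was open in aNE alone, and the windows of PAX2 and MEIS2 were closed in all 10. Other start sites of a gene were not read, so a closed window does not mean that the gene had no open promoter. So the hindbrain genes HOXA2, HOXB1 and EGR2 had no peak in these windows in aNE_H, but they say little about its label. The EGR2 window, closed in all 10, could not tell any lists apart, and that of HOXB1 was also open in hPSC, DE and aNE. HOXA2 alone set the posterior lists apart from the others. The populations are called by their list names below.

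Promoters rarely separated the media. The table held 15101 promoters, of which 11654 were open in aNE_T or aNE_H. Of these 11654, 288 (2.47%) were open in aNE_T only and 213 (1.83%) in aNE_H only. Of the 227 members of the 15 gene lists used below, 154 had a promoter among the 15101, whether open or not. In aNE_T only, 9 of these were open: PAX6 and NKX2-1 of the forebrain list, EPHA4 (an Eph receptor of hindbrain segments), HOXD12, CYP26A1 (a retinoic acid-degrading enzyme), WNT8B (a WNT ligand of the forebrain), HES5 (a NOTCH target), KRT8 and NANOG. TUBB3, a neuronal tubulin, was the single member open in aNE_H only. In several the other list's nearest peak lay close to the window, 112 bp away for EPHA4, 127 bp for KRT8, 151 bp for NKX2-1 and 427 bp for CYP26A1. Over all exclusive promoters the other list's nearest peak was more than 500 bp away at 171 of the 288 and 119 of the 213. The peak at the window lay in a merged region open in both lists at 99 of the 288 and 72 of the 213, among them the windows of EPHA4, CYP26A1 and KRT8. The nearest aNE_H peak lay 1429 bp from the PAX6 window and 5414 bp from that of WNT8B.

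Of these promoters 4 are printed, 3 that were open in aNE_T only and belong to genes of brain patterning, and the 1 open in aNE_H only. Each is the 250 bases before the start site, 5′ to 3′ on the gene's strand, from RefSeq GRCh38.p14. Capitals mark any match, on either strand, to 6 motifs. These are TAATCC, bound by OTX-type homeodomains, TCAAAG, the core bound by TCF/LEF factors, AGGTCA, the half-site of nuclear receptors, GGGCGG, known as the GC box, CCAAT, known by that name, and TATAAA, the motif of TATA promoters.
WNT8B (chr10:100462759-100463008, plus strand): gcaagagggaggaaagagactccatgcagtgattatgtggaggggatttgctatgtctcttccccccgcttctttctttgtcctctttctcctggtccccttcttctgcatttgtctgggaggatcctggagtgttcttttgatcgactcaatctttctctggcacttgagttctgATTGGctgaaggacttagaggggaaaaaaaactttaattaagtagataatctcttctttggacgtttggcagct
PAX6 (chr11:31817962-31818211, minus strand): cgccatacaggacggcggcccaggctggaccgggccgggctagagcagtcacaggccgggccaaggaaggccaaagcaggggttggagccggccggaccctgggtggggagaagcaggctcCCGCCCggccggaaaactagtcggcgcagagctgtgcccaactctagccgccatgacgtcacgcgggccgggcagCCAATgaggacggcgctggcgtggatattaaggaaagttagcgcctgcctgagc
CYP26A1 (chr10:93073225-93073474, plus strand): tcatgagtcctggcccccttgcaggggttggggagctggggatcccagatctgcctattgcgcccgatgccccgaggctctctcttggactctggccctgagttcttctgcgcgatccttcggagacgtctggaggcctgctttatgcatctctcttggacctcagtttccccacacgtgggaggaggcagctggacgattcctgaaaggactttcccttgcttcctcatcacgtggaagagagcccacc
TUBB3 (chr16:89921675-89921924, plus strand): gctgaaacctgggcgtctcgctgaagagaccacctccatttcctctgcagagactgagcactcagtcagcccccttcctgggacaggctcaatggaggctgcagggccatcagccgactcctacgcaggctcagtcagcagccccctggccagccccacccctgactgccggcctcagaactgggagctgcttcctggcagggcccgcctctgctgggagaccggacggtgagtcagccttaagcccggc

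In the printed bases the WNT8B promoter held 1 CCAAT box, read on the opposite strand, at 74 bases before the start site. The PAX6 promoter held 1 GC box and 1 CCAAT box. The printed bases of CYP26A1 and TUBB3 held no match to any of the 6. Their GC content was 45.2% for WNT8B, 68.4% for PAX6, 59.6% for CYP26A1 and 65.6% for TUBB3. Such matches are common: CCAAT stood in 36% of all 15101 promoter windows of 300 bases and GGGCGG in 58.9%.

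Promoters exclusive to 1 medium were poorer in GC than those open in both. Their median GC content was 54.8% for aNE_T only and 54.0% for aNE_H only, against 66.0% for promoters open in both. The median number of CG dinucleotides per window was 7 and 5, against 27. TAATCC was found in 10.8% of the 288 promoters open in aNE_T only, 5.63% of the 213 open in aNE_H only, 4.06% of those open in both and 5.38% of all. ACAATG, a SOX-type motif, was found in 15.6%, 8.92%, 5.6% and 7.96% in the same order. TCAAAG went the other way between the media, with 14.9% in aNE_T only and 19.7% in aNE_H only, beside 10.8% of all. AGGTCA was found in 16.7% and 18.8%, beside 11.7% of all. In the 3447 promoters open in neither list the shares were 9.17% for TAATCC, 14.9% for ACAATG, 18.8% for TCAAAG and 19.1% for AGGTCA. So for each of these 4 motifs at least 1 exclusive set lay near the level of promoters open in neither list. Not all of the 12 motifs counted did so. CAGCTG, an E-box, was found in 22.2% and 28.2%, beside 18.8% in neither list, and TATAAA in 11.8% and 14.1%, beside 22.9%. These are letter matches in promoters, counted without a test.

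Peaks open in 1 medium only were narrow. The median stretch of a region covered by aNE_T peaks was 200 bp where only aNE_T was open and 407 bp where both were. In aNE_H the medians were 195 bp and 387 bp. Where a list covered under 150 bp of a region, that region was exclusive to it in 59.6% of cases in aNE_T and 62.7% in aNE_H. Where it covered 800 bp or more, the share fell to 1.98% and 1.29%. Lists as deposited held peaks as narrow as 122 bp (aNE_T) and 126 bp (aNE_H), and width is the only measure of a peak's size in them.

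Exclusive regions were also farther from genes. Of the regions open in aNE_T only, 8.82% lay within 1 kb of the end of a gene of any kind, and 7.78% of those open in aNE_H only, against 20% of the regions open in both. The median distance to the nearest end of a protein-coding gene was 40.5 kb, 53.6 kb and 30.1 kb. At 10.6% of the aNE_T-only and 10.3% of the aNE_H-only regions the other list had a peak within 500 bp. Open in that list alone among all 10 were 6155 regions of aNE_T (12% of its exclusive regions) and 8683 of aNE_H (15.7%).

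The lists were then cut to 1 size, each to its 162041 widest peaks on chromosomes 1 to 22, the size of the aNE list. This left 45419 regions open in aNE_T only, 44183 in aNE_H only and 109580 in both. The balance between the media turned: aNE_T held 48.3% of the exclusive regions as deposited and 50.7% at equal size. As deposited, aNE_H was the longer list, with 196961 peaks on these chromosomes beside 191380 in aNE_T.

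The midbrain medium gave a list that overlapped aNE_H somewhat more than aNE_T. aNE_M shared 147373 regions with aNE_T and 153994 with aNE_H, and the shared part of the union was 0.633 and 0.67, compared with 0.55 between aNE_T and aNE_H. At equal size the 3 values were 0.636, 0.67 and 0.55. aNE_M was open at 43.9% of the aNE_T-only regions (95% Wilson interval 43.5 to 44.4%) and at 53.0% of the aNE_H-only regions (52.6 to 53.4%). It was open at 96% of the regions open in both and at 9.27% of those open in neither. Intervals cover the number of regions only. At equal size aNE_M was open at 38.3% of the aNE_T-only and 46.9% of the aNE_H-only regions, so the difference kept its direction. Put as states, as deposited aNE_M more often matched aNE_H than aNE_T on both sides. At equal size it was closed at most of the exclusive regions of either medium, where its list was cut from 211358 to 162041 peaks.

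**Figure D1:**
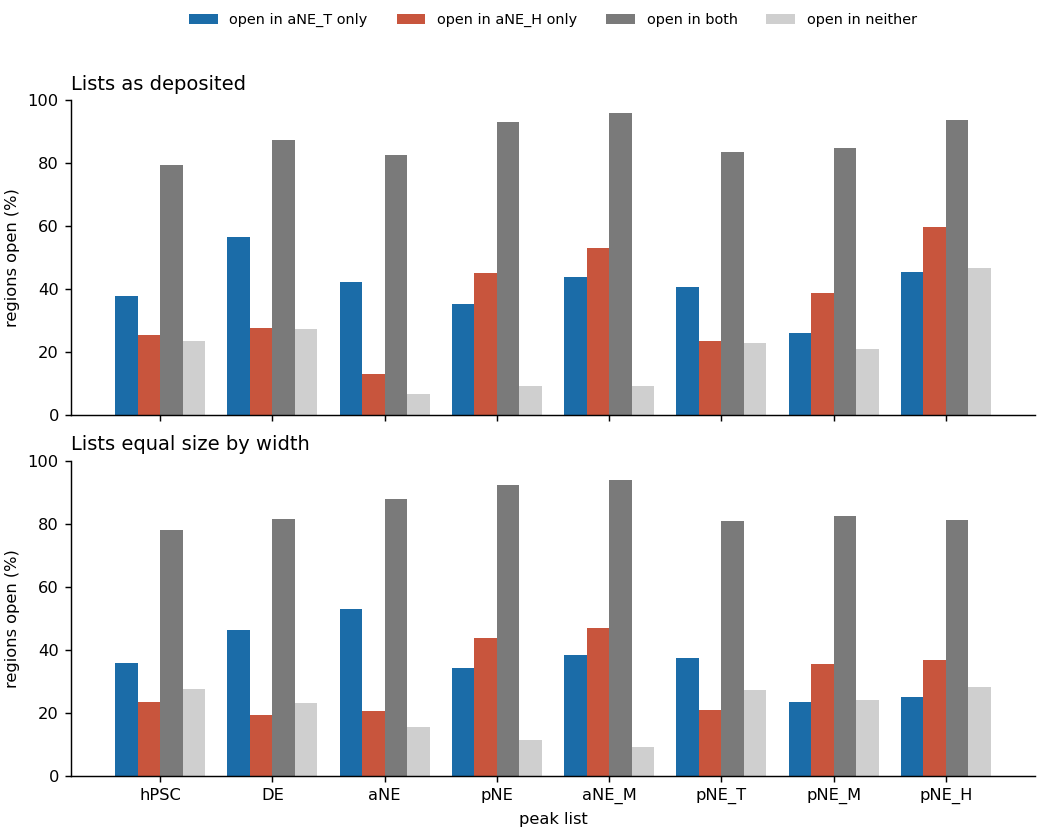
Percent of regions open in each of the other 8 peak lists, for regions open in aNE_T only, in aNE_H only, in both or in neither, with lists as deposited (top) and cut to 1 size (bottom). hPSC, DE, aNE and pNE_T were open at more aNE_T-only than aNE_H-only regions and pNE, aNE_M, pNE_M and pNE_H at more aNE_H-only regions, in both settings.

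How often aNE_M joined a side rose with the width of the peak. At aNE_T-only regions covered over less than 150 bp aNE_M was open in 26.8%, and over 800 bp or more in 88.5% of 559. At aNE_H-only regions the same shares were 32.7% and 97.6% of 330. Wide exclusive peaks of either medium were thus mostly also peaks of aNE_M. In every width class aNE_M was open at more of the aNE_H-only than of the aNE_T-only regions.

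**Figure D2:**
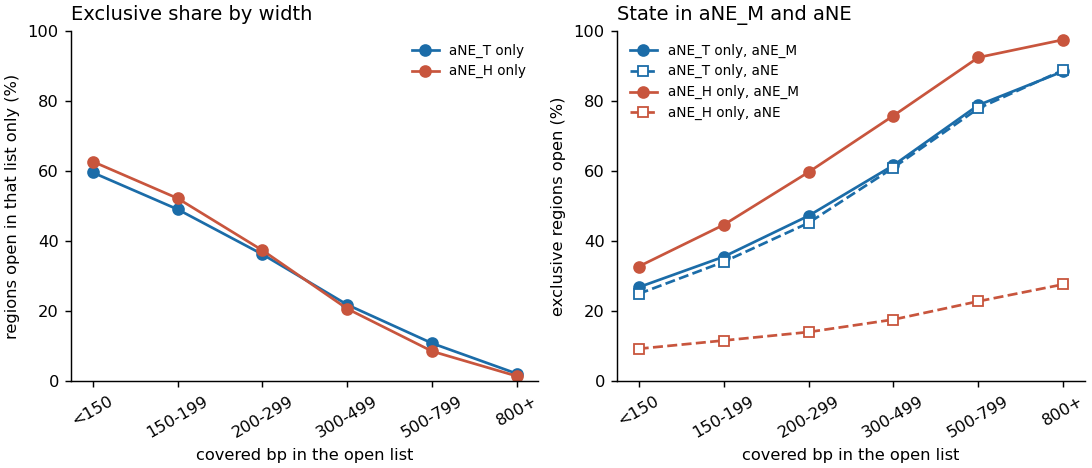
Left, percent of the regions open in aNE_T (blue) or aNE_H (red) that were open in that list and not the other, by the bp covered. Right, percent of these exclusive regions open in aNE_M (filled circles, solid) or day 2 aNE (open squares, dashed). aNE_T-only regions followed nearly the same curve in aNE_M and aNE, while aNE_H-only regions of 800 bp or more were open in 97.6% in aNE_M and 27.6% in aNE.

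Regions of the telencephalon medium had more often been open before. The day 2 parent population, aNE, was open at 42.4% of the aNE_T-only regions and at 13.1% of the aNE_H-only regions. At equal size the shares were 52.8% and 20.4%. DE on day 1 was open at 56.5% and 27.8%, and hPSC at 37.9% and 25.4%. For comparison, aNE was open at 82.5% of the regions open in both media and at 6.65% of those open in neither.

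Splitting each side by aNE and aNE_M gave 4 paths. At the aNE_T-only regions, 11829 (23%) were open in aNE and kept in aNE_M, 9980 (19.4%) were open in aNE and closed in aNE_M, 10771 (20.9%) were closed in aNE and open in aNE_M, and 18862 (36.7%) were open in neither. At the aNE_H-only regions the shares in the same order were 9.47%, 3.62%, 43.5% and 43.4%. The largest paths on the hindbrain side were therefore regions with no peak in the parent population.

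Many hindbrain-side regions matched day 2 posterior ectoderm instead. pNE, which is not the parent of aNE_H, was open at 45.2% of the aNE_H-only regions and at 35.2% of the aNE_T-only regions. At equal size these were 43.7% and 34.2%. Open in pNE and closed in aNE were 19703 aNE_H-only regions (35.7%) and 6010 aNE_T-only regions (11.7%). aNE_M was open at 75.7% of the former, compared with 32.2% of the 28225 aNE_H-only regions that were closed in both day 2 lists. The aNE_T-only regions had the same order, with aNE_M open at 61.65% of the 6010 and 29.9% of the 23623 closed in both. Of the 19703 aNE_H-only regions 39.5% had a peak in hPSC or DE, compared with 58.3% of the 6010 aNE_T-only regions in the same day 2 state. Among regions open in aNE and closed in pNE the share was 84.5% of the 9734 aNE_T-only and 75.5% of the 1994 aNE_H-only. So this share differed by day 2 state as well as by medium.

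The same 2 media divided the posterior branch at some of the same places. At equal size, 9456 aNE_T-only regions were open in pNE_T and closed in pNE_H and 3831 the reverse, so that pNE_T was the open list at 71.2% of those that differed. At the aNE_H-only regions pNE_T was the open list at 22.3% of those that differed. Over all regions it was 48.3%, and over those open in both aNE_T and aNE_H 48.9%. As deposited, where pNE_H was the largest list with 302355 peaks, the shares were 42.4% and 7.16%, beside 20.9% over all regions. Most exclusive regions were not divided in the posterior branch: 24660 aNE_T-only and 25144 aNE_H-only regions were closed in both pNE_T and pNE_H at equal size.

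Where both media were open, covered length differed by 2-fold or more at a minority of regions. Of the 130025 such regions aNE_T covered at least 2-fold more bp at 10143 (7.8%) and aNE_H at 8766 (6.74%). aNE_M's covered length was nearer that of aNE_T at 64.1% of the former that it had open and at 23.6% of the latter. At equal size aNE_T was wider at 7076 and aNE_H at 5744.

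Genes were next given the regions that lay within 50 kb of them. Of 18686 protein-coding genes with a region in reach, 46.7% had more aNE_T-only than aNE_H-only regions and 37.2% had more aNE_H-only, with a median difference of 0. Counted once each, 51% of the exclusive regions in reach of any such gene were aNE_T-only. This background is not the same everywhere. In 1 Mb bins with no protein-coding gene aNE_T-only regions made up 31.7% of the exclusive regions, in bins with 1 to 4 such genes 44.1%, and in bins with 20 or more 55.9%. At equal size the shares were 34.1%, 46.4% and 57.6%. By chromosome the share ran from 36.5% on chromosome 4 and 37.8% on chromosome 13 to 59.9% on chromosome 22 and 60% on chromosome 16. Each gene list is therefore set beside the share over the 1 Mb on either side of its genes. These surroundings are summed over genes, so a region near several genes counts for each, while list shares count each region once. Over all protein-coding genes the surroundings stood at 53.5%, above the 51% in reach, so a list slightly below its surroundings is not unusual. The part of gene density in any gene's balance was not tested.

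**Figure D3:**
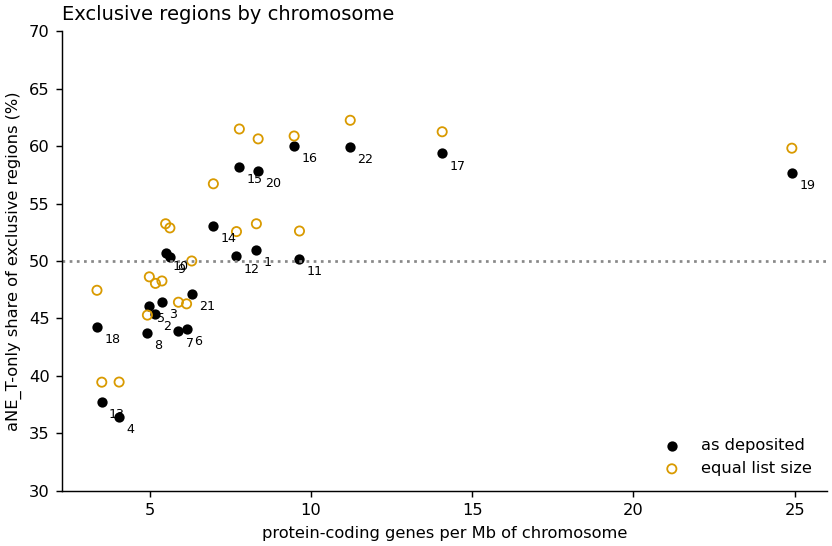
Share of exclusive regions that were open in aNE_T only against the density of protein-coding genes, 1 point per chromosome (numbers 1 to 22), as deposited (filled) and at equal list size (open). Chromosomes 4, 13 and 18 are the gene-poorest, and 4 and 13 have the lowest shares at 36.5% and 37.8%; the share does not go on rising to chromosome 19, the gene-densest, at 57.7%.

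**Figure D4:**
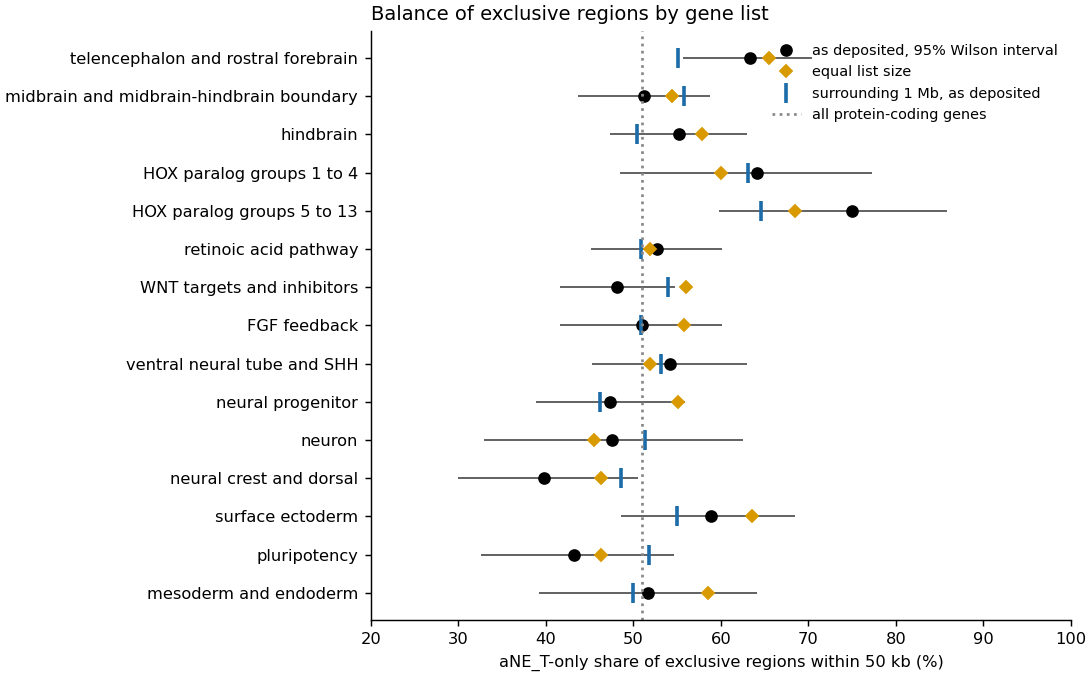
Share of exclusive regions within 50 kb that were open in aNE_T only, for 15 gene lists: as deposited with its 95% Wilson interval (black), at equal list size (diamonds) and over the surrounding 1 Mb (bars). The dotted line marks 51% over all protein-coding genes, whose surroundings stood at 53.5%. Surroundings count a region for each gene near it. The forebrain list stands at 63.3%, above its surroundings at 55.1%, and the neural crest list at 39.8%, below its surroundings at 48.5%.

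Forebrain genes more often had an excess of aNE_T-only regions. Of the 23 genes of the telencephalon and rostral forebrain list, 14 had more aNE_T-only regions, 3 more aNE_H-only and 6 equal numbers, with a median difference of 1. Together they had 102 aNE_T-only and 59 aNE_H-only regions. That is 63.3% aNE_T-only (Wilson interval 55.7 to 70.4%), 65.5% at equal size and 55.1% over the surrounding 1 Mb. aNE_M was open at 56 of the 102 and 27 of the 59. The posterior branch leaned the same way, with 85 pNE_T-only and 51 pNE_H-only regions at equal size.

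PAX6, a regulator of eye and forebrain, had 10 aNE_T-only and 3 aNE_H-only regions, and aNE_M was open at 8 of the 10. Its printed promoter belongs to 1 of them, a region open in 8 lists and closed in aNE_H and pNE_M. SIX3, which represses WNT genes in the anterior neural plate, had 7 and 3. Its widest aNE_T-only peak lay 3.62 kb from the gene, in a region at chr2:44937118-44938082 where aNE_T covered 850 bp, aNE_M 693 bp, aNE 776 bp and aNE_H none. The SIX3 gene itself held a region of the other kind, chr2:44943727-44944834, with 523 bp in aNE_H, 1108 bp in pNE_H, 1026 bp in hPSC and none in aNE or aNE_T. So the locus had peaks of both kinds within a few kilobases.

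LHX2, a cortical selector gene, had 7 aNE_T-only and 3 aNE_H-only regions, and 8 and 3 at equal size. HESX1, a repressor of the early forebrain, had 6 and 1. Its window overlaps that of IL17RD, and its widest aNE_T-only peak lay nearer IL17RD. By nearest gene end HESX1 had 2 and 1. DMRTA2 had 7 and 2 and NR2E1, an orphan receptor of neural stem cells, 6 and 1.

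FEZF2, a factor of forebrain progenitors, had 4 aNE_T-only and 5 aNE_H-only regions although it held 1 of the widest exclusive peaks near any core gene. The region at chr3:62364962-62366287, 3.39 kb from FEZF2, had 1326 bp in aNE_T, 812 bp in aNE_M, 933 bp in aNE, 543 bp in DE, 801 bp in pNE_T and none in aNE_H. A second, 0.521 kb from the gene, had 784 bp in aNE_T, 361 bp in aNE_M and none in aNE_H. The 5 aNE_H-only regions covered at most 408 bp in aNE_H. OTX2, needed for forebrain and midbrain, had 4 of each kind as deposited and 7 aNE_T-only against 2 aNE_H-only at equal size.

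**Figure D5:**
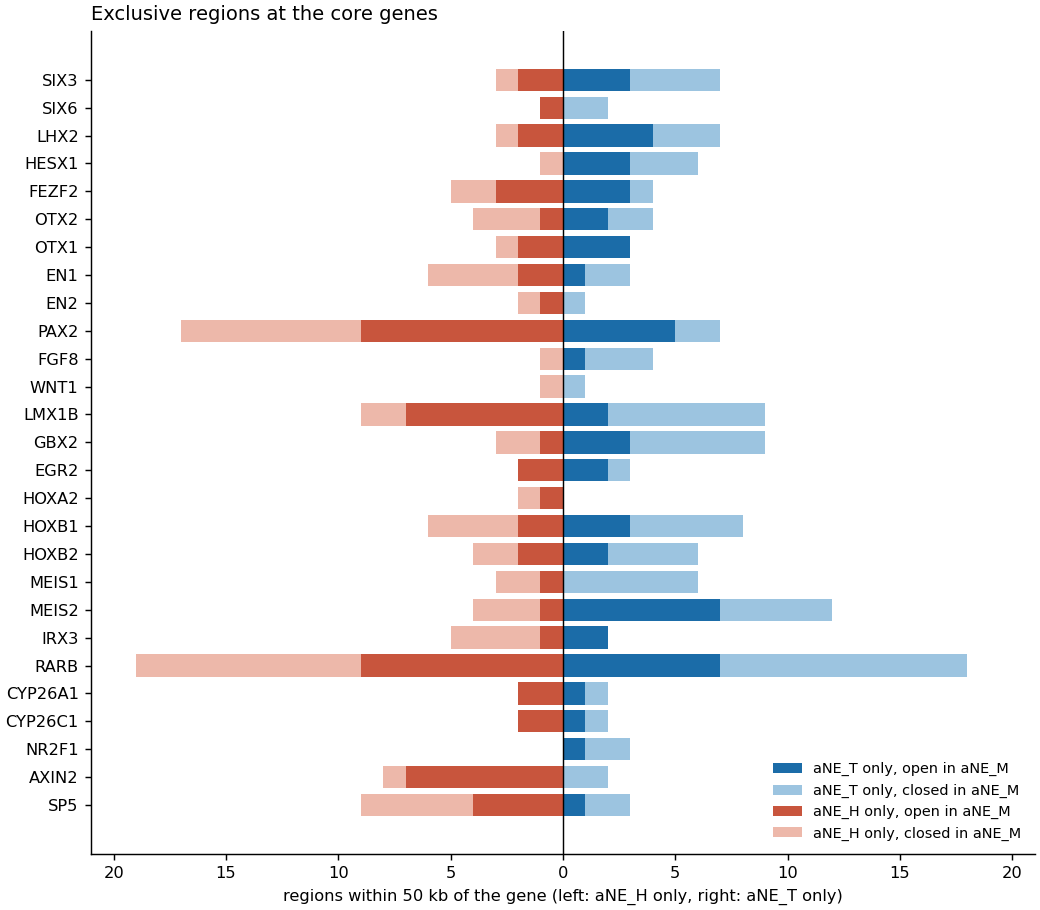
Number of regions within 50 kb of 27 patterning genes that were open in aNE_T only (right) or aNE_H only (left), each split by whether aNE_M was open (dark) or closed (pale). PAX2, AXIN2 and SP5 extend to the left with 17, 8 and 9 regions, MEIS2 and GBX2 to the right with 12 and 9, and RARB to both sides with 18 and 19.

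Genes of the midbrain and its border with the hindbrain were split. Of 16 genes 8 had more aNE_T-only and 5 more aNE_H-only regions. That is 50% and 31.25% of genes, near the 46.7% and 37.2% over all protein-coding genes. The list had 85 and 81 regions and a share of 51.2% (surroundings 55.8%). aNE was open at 51.8% of the 85 and 7.41% of the 81.

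PAX2, an early border factor, had 17 aNE_H-only and 7 aNE_T-only regions, and 12 and 6 at equal size. aNE was open at 1 of the 17, pNE at 7 and aNE_M at 9. Its widest aNE_H-only peak lay in a region 21.5 kb from the gene (chr10:100712791-100713866) with 494 bp in aNE_H, 297 bp in aNE_M, 410 bp in pNE and none in aNE or aNE_T. PAX2 also held an aNE_T-only region inside the gene, chr10:100739136-100740335, with 947 bp in aNE_T, 231 bp in aNE_M and 1056 bp in pNE_H. CNPY1, a gene of FGF signalling at the border, had 7 aNE_H-only and 1 aNE_T-only, and PAX8 6 and 3. EN1, a border homeobox gene, had 6 aNE_H-only and 3 aNE_T-only. A peak 4.79 kb from EN1, 286 bp wide, was found in aNE_H alone among all 10 lists.

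PAX7 and PAX5 leaned the other way, with 12 and 7 and with 13 and 9 regions (aNE_T-only first). LMX1B had 9 of each, but aNE_M was open at 7 of its aNE_H-only and 2 of its aNE_T-only regions. The ligand genes of the organiser, FGF8 and WNT1, had few: 4 and 1, and 1 and 1.

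By regions the hindbrain list did not lean to the hindbrain medium, with 84 aNE_T-only and 68 aNE_H-only (55.3%, surroundings 50.5%, 57.9% at equal size). Of its 20 genes, however, 9 had more aNE_T-only and 11 more aNE_H-only regions. That is 45% and 55% of genes, beside 46.7% and 37.2% over all protein-coding genes. MEIS2, a HOX cofactor that is also expressed in forebrain, had 12 aNE_T-only and 4 aNE_H-only. One of its aNE_T-only regions (chr15:37148658-37149795, 47.4 kb from the gene) had 1115 bp in aNE_T, 1037 bp in DE, 905 bp in aNE, 262 bp in aNE_M and none in aNE_H. EPHA4 had 12 and 6. GBX2, which opposes OTX2 at the border, had 9 aNE_T-only and 3 aNE_H-only. Its widest aNE_H-only peak, 570 bp and 19.2 kb away, was open in aNE_H and pNE among the 10 lists and closed in aNE_M.

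On the other side PTF1A, a factor of cerebellar and dorsal hindbrain progenitors, had 4 aNE_H-only regions and no aNE_T-only, and VGLL3 had 5 and 1. EGR2 did not lean this way, with 3 aNE_T-only and 2 aNE_H-only regions. Its widest aNE_T-only peak, inside the gene and 648 bp wide, lay in a region also open in hPSC, DE, aNE_M and the 4 posterior lists. NR2F1, a nuclear receptor, had 3 aNE_T-only regions and no aNE_H-only.

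HOX genes had a low share of exclusive regions. Of regions open in either medium, 30.5% were exclusive near paralog groups 1 to 4 and 26.5% near groups 5 to 13. Over all protein-coding genes the share was 43.05%. In groups 1 to 4 the aNE_T-only share was near that of the surroundings. Paralog groups 1 to 4, the hindbrain HOX genes, had 25 aNE_T-only and 14 aNE_H-only regions over 12 genes (64.1%, surroundings 63.1%). Groups 5 to 13 had 30 and 10 over 27 genes (75%, Wilson interval 59.8 to 85.8%, which holds the 64.5% of the surroundings), with 25 genes having more aNE_T-only, none more aNE_H-only and 2 equal. Genes of a cluster lie within reach of the same regions, so the 25 are not separate cases. HOXA2 differed from most, with 2 aNE_H-only regions and no aNE_T-only. HOXB1 had 8 aNE_T-only and 6 aNE_H-only. Its widest aNE_T-only and aNE_H-only peaks lay in neighbouring regions, and 9 and 8 of the 10 lists were open there.

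By regions the retinoic acid list was level, with 88 aNE_T-only and 79 aNE_H-only (52.7%, surroundings 50.8%). Over its 19 genes, 7 had more aNE_T-only and 9 more aNE_H-only regions. That is 36.8% and 47.4% of genes, beside 46.7% and 37.2% over all protein-coding genes. RARB, a receptor gene that retinoic acid induces, had 18 aNE_T-only and 19 aNE_H-only within its long gene and flanks. Its aNE_H-only region at chr3:25569495-25570444 had 920 bp in aNE_H, 846 bp in aNE_M, 367 bp in pNE and none in aNE or aNE_T. A few kilobases on, chr3:25573453-25574093 had 641 bp in aNE_T, 387 bp in hPSC and no peak in the other 8 lists. RARA, a second receptor, had 8 aNE_T-only and 1 aNE_H-only, and RXRG 7 and 1. RDH10 and ALDH1A1, enzymes of retinoic acid synthesis, had 3 and 5 and 2 and 4.

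CYP26A1 and its neighbour CYP26C1, which clear retinoic acid, share a window with 2 regions of each kind, while the CYP26A1 promoter window was open in DE, aNE, pNE and aNE_T only. That promoter's peak is not among the exclusive regions, because the merged region it lies in was open in both media, with 1774 bp in aNE_T and 1241 bp in aNE_H. Both aNE_H-only regions lay about 4 kb beyond CYP26A1, were also open in aNE_M and pNE_H, and were closed in the 4 lists of days 0 to 2. The wider had 174 bp in aNE_H, 154 bp in aNE_M and 151 bp in pNE_H.

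Within the WNT list, the genes with the largest excess of aNE_H-only regions were LEF1, AXIN2 and SP5. Those with the largest excess of aNE_T-only regions were ZNRF3 and FZD5, followed by CDX2 and WNT8B, each with an excess of 4. Over the whole list 9 of 20 genes had more aNE_T-only and 10 more aNE_H-only regions. That is 45% and 50% of genes, beside 46.7% and 37.2% over all protein-coding genes. The list had 104 and 112 regions (48.1%, surroundings 53.9%). This share was 56% at equal size, with 102 and 80 regions, and 58.2% with peaks of at least 200 bp alone, so the list's direction turned.

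AXIN2, a feedback inhibitor that WNT induces in most tissues, had 8 aNE_H-only and 2 aNE_T-only regions, the same at equal size. aNE_M was open at 7 of the 8, aNE at 1 and pNE at 3. The widest, at chr17:65592706-65593650 and 31.1 kb from the gene, had 945 bp in aNE_H, 452 bp in aNE_M, 791 bp in pNE_M and no peak in the other 7 lists. Neither aNE_T-only region was open in aNE_M.

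SP5, a direct WNT target, had 9 aNE_H-only and 3 aNE_T-only regions, and 5 and 3 at equal size. A region 8.07 kb from the gene (chr2:170726150-170726599) had 360 bp in aNE_H and 450 bp in aNE_M and was closed in the other 8 lists. A second, 5.96 kb from it, had 345 bp in aNE_H and 197 bp in aNE_M and was likewise closed elsewhere. Both were open in aNE_M and aNE_H alone among the 10 lists. LEF1, a WNT-responsive transcription factor that is itself induced by WNT, had 17 aNE_H-only and 7 aNE_T-only. Of the 17, 7 were open in aNE_M, as were 6 of the 7.

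FZD5, a WNT receptor of the eye field and forebrain, showed the opposite, with 11 aNE_T-only and 4 aNE_H-only regions. aNE_M was open at 9 of the 11 and none of the 4. The region 10.1 kb from it (chr2:207751482-207752457) had 976 bp in aNE_T, 512 bp in aNE_M, 400 bp in aNE, 119 bp in DE and none in aNE_H or the posterior lists. ZNRF3, which removes WNT receptors, had 13 and 5. WNT8B, picked after its promoter was seen, had 4 aNE_T-only regions and no aNE_H-only, and none of the 4 was open in hPSC, pNE, pNE_T, pNE_M or pNE_H. Its promoter region (chr10:100462529-100463270) had 739 bp in aNE_T, 523 bp in aNE_M, 308 bp in aNE and 275 bp in DE.

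FGF feedback genes were level by regions, at 55 and 53 over 12 genes (50.9%, surroundings 50.9%). By gene 41.7% had more aNE_T-only and 50% more aNE_H-only regions, beside 46.7% and 37.2% over all protein-coding genes. IL17RD, an FGF inhibitor whose window overlaps that of HESX1, had 10 aNE_T-only and 3 aNE_H-only, and ETV5, an FGF-induced factor, 8 and 2. DUSP6, an ERK phosphatase induced by FGF, had 2 and 7, SPRED1 3 and 8 and ETV1 1 and 5.

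Ventral and Sonic hedgehog genes had 64 and 54 regions over 13 genes (54.2%, surroundings 53.1%). FOXA2, of the floor plate, had 8 aNE_T-only regions and no aNE_H-only, with aNE_M open at 4. HHIP, a hedgehog inhibitor, had no aNE_T-only and 5 aNE_H-only, with aNE_M open at 4, and DBX1 had 1 and 5.

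General neural progenitor genes had 61 and 68 regions over 14 genes (47.3%, surroundings 46.2%), and 55.1% at equal size. aNE_M was open at 61.8% of the 68 and 39.3% of the 61. POU3F3, a POU factor of the neural tube, had 11 aNE_H-only and 2 aNE_T-only regions, and aNE_M was open at 8 of the 11 and both of the 2. CDH2, the neural cadherin, had 8 and 6. HES5 leaned the other way with 8 aNE_T-only and 4 aNE_H-only, and SOX1 with 4 and 2.

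Genes of other cells that such cultures could hold were read in the same way. Neuron genes had 19 and 21 regions over 10 genes (47.5%, surroundings 51.4%). Neural crest and dorsal genes had 33 and 50 over 11 genes (39.8%, Wilson interval 29.9 to 50.5%, surroundings 48.5%), and 46.3% at equal size. SNAI2, a crest factor, had 1 aNE_T-only and 7 aNE_H-only, ETS1 5 and 12 and PAX3, of the dorsal neural tube, 7 and 10. Surface ectoderm genes had 53 and 37 over 9 genes (58.9%, surroundings 55%), with GATA2 at 12 and 3 and TFAP2C at 1 and 6. Pluripotency genes had 32 and 42 over 11 genes (43.2%, surroundings 51.8%). POU5F1 had 4 aNE_T-only regions and no aNE_H-only, all 4 of which were open in hPSC and 3 in DE. FGF4 had no aNE_T-only and 6 aNE_H-only, 5 of them open in aNE_M. Mesoderm and endoderm genes had 30 and 28 over 10 genes (51.7%, surroundings 50%), with EOMES at 0 and 6. The part of other cell types in the results above was not tested.

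By nearest gene end, the 8 genes with the largest excess in each direction were of varied kinds and lengths, from SLITRK1 at 5.27 kb to RBFOX1 at 2474 kb. On the telencephalon side RBFOX1, a neuronal splicing factor, had 88 aNE_T-only and 25 aNE_H-only regions, PTPRT 54 and 15, PLXNA2, a semaphorin receptor, 56 and 22, CDH4 55 and 23, ASIC2 53 and 18, FSTL4 51 and 20, TLN2 37 and 5 and AUTS2 83 and 56. aNE was open at 40 of the 88 and aNE_M at 38.

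On the hindbrain side GPC5, a glypican that binds growth factors, had 111 aNE_H-only and 18 aNE_T-only regions. aNE_M was open at 62 of the 111, pNE at 57, pNE_H at 80 and aNE at 10. PCDH9, a protocadherin, had 78 and 18, GBE1 66 and 14, LOC124900173 63 and 14, SLITRK1 62 and 11, PCDH18 61 and 11, BRINP3 58 and 8 and TENM3, a teneurin, 92 and 45. Of these 8 genes 3 lie on chromosome 13 and 3 on chromosome 4, the chromosomes with the lowest aNE_T-only shares.

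Away from gene ends, the widest exclusive peak of the telencephalon medium lay inside TMEM178B (chr7:141311872-141313456). It had 1585 bp in aNE_T, 1108 bp in aNE, 663 bp in DE, 500 bp in aNE_M and no peak in the other 6 lists. The widest of the hindbrain medium lay at chr5:163915019-163916704, 396 kb from MAT2B, with 1611 bp in aNE_H, 1221 bp in aNE_M, 1307 bp in pNE_H and 209 bp in aNE; aNE_T was the only list closed there. A region 90.7 kb from MYCN (chr2:16037694-16039354) had 1379 bp in aNE_H, 717 bp in aNE_M, 785 bp in pNE and none in hPSC, DE, aNE or aNE_T. All 3 were open in aNE_M.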

How the data were processed

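The deposited data are 10 peak lists, 1 per population, each with a chromosome, a start and an end and no score, so the deposited coordinates are their only values. Peaks were on hg38, per the submitters' processing notes, which also name FastQC, Bowtie2, MACS2, bedtools, featureCounts, edgeR and deepTools without roles. How the 3 libraries of a population were combined, and the threshold, are not given in the sources used here. Read depth is unknown. The authors' peaks on chromosomes 1 to 22 were merged at 1 bp of overlap (Python 3.11.15, numpy 2.4.6, pandas 2.3.3), checked on simulated lists with 0 disagreements. Each list was also cut to its 162041 widest peaks. Gene positions and promoters came from RefSeq GRCh38.p14. Of 231 listed gene names, 227 were matched on these chromosomes. Members, gene lists and alternatives were chosen with earlier results of these data known. Named genes were 30 core genes, up to 3 per direction and list, and 8 per direction by nearest gene end; others are said to be chosen after their values were seen, and some named genes are not reported here. Peak sequences were not analysed here. In place of a planned motif count in peaks, 12 motifs were counted in promoters.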

Additional observations from a re-analysis of the deposited data

Results flagged for a closer look

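At equal list size, 5 gene lists had opposite signs in the number of regions exclusive to telencephalon medium minus those exclusive to hindbrain medium between the anterior and the posterior branch. The retinoic acid list had a difference of 6 in the anterior and -22 in the posterior branch, WNT targets and inhibitors 22 and -7, FGF feedback 12 and -18, neural progenitor 12 and -10 and neuron -3 and 21. The difference between the branches was not tested, and each is 1 list against 1 list. Near all protein-coding genes the anterior balance was itself 53.3% aNE_T-only, with 34430 against 30133 regions. The anterior shares of the 5 lists, in the order given, were 51.9%, 56.0%, 55.8%, 55.1% and 45.45%. The retinoic acid list thus lay below that background despite its positive sign. In the posterior branch pNE_T was the open list at 48.3% of all regions that differed, near genes or not. A share near protein-coding genes was not taken there, so the branches are set beside unlike backgrounds. As deposited, the anterior difference had the opposite sign to its equal-size value in the WNT list (104 against 112 regions) and the neural progenitor list (61 against 68). The posterior groups were also plated more densely.

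Peaks outside the comparison were a small part of both lists. Chromosome X held 3.02% of all aNE_T peaks and 3.17% of all aNE_H peaks, and unplaced or alternative scaffolds 4.81% and 4.68%.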

How the results depend on the processing

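No paired analysis was possible because each population has 1 list and no value per library, and leaving out a replicate could not be done for the same reason. Over 8 alternatives the counts of exclusive regions stayed within 1.5 times of the reported ones, and the share of exclusive regions that were aNE_T-only (48.3%) crossed 50% only where lists were cut to 1 size. In the order aNE_T-only share, aNE_M at aNE_T-only and at aNE_H-only regions, then aNE, pNE_T and pNE_H at each, values moved as follows. With all lists at 1 size they were 50.69%, 38.29% and 46.88%, 52.84% and 20.44%, 37.27% and 20.67%, and 24.89% and 36.66%. Calling a list open only where it covered 50% of a region gave 48.81%, 41.09% and 49.63%, 38.88% and 12.15%, 34.61% and 16.94%, and 40.21% and 53.7%.

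With only aNE_T, aNE_M and aNE_H cut to 1 size the aNE_T-only share was 50.64%, aNE_M was open at 37.48% and 46.89%, aNE at 13.45% of the aNE_H-only regions, pNE_T at 41.04% and 23.89% and pNE_H at 46.23% and 60.67%. With peaks of at least 200 bp alone the share was 49.74%, aNE_M was open at 51.96% of the aNE_H-only regions, aNE at 44.46% and 14.58%, pNE_T at 38.65% and 21.74% and pNE_H at 42.0% and 56.87%. With windows of 500 bp at peak midpoints aNE_M was open at 45.13% and 54.51%, aNE at 43.82% and 14.02%, pNE_T at 42.32% and 24.87% and pNE_H at 47.01% and 61.71%. Merging aNE_T, aNE_M and aNE_H alone gave 48.63% for the share, 42.62% and 51.91% for aNE_M, and 13.55% for aNE and 60.27% for pNE_H at the aNE_H-only regions. Leaving out regions with a peak of the other list within 500 bp gave aNE 12.64% and pNE_H 60.21% at the aNE_H-only and pNE_T 41.28% at the aNE_T-only regions, and leaving out those within 1 kb of a gene end gave aNE 12.8% at the aNE_H-only regions. Under all 8 alternatives aNE_M was open at more aNE_H-only than aNE_T-only regions, and aNE at more aNE_T-only regions.

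Over 11 alternatives the forebrain list kept between 57.7% and 66.2% aNE_T-only regions and the neural crest list between 37.3% and 46.5%, while the WNT list ran from 41.2% to 58.2%. Other lists that crossed 50% were neuron (40.8% to 60.7%), neural progenitor (44.0% to 55.1%), midbrain (45.0% to 55.6%), FGF (42.6% to 56.2%), retinoic acid (47.7% to 58.7%), SHH (48.3% to 55.6%) and mesoderm and endoderm (46.3% to 58.5%). Regions open in both media and at least 2-fold wider in aNE_H fell from 8766 to 5744 at equal size. At 1.5-fold there were 22833 wider in aNE_T and 19318 in aNE_H, and at 3-fold 3031 and 2521. Depth is unknown, so a region closed in a list may have been open below the authors' threshold, and list lengths may differ for that reason; this was not tested.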

Other observations

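Some 1 Mb stretches held far more exclusive regions of 1 medium than of the other, and they were picked here for that excess. On chromosome 15 the stretch with TLN2 and VPS13C had 50 aNE_T-only and 8 aNE_H-only regions, beside 58 open in both, and the stretch with THBS1 and GPR176 had 50 and 14. The stretch of chromosome 2 that holds SIX3 had 54 and 18, with aNE open at 26 and aNE_M at 22 of the 54. GRIN2A, an NMDA receptor subunit, lay in a stretch of chromosome 16 with 44 and 8.

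On the hindbrain side 4 of the 5 leading stretches lay on chromosome 13. The stretch with DACH1, a transcription factor of eye and brain, had 43 aNE_H-only and 7 aNE_T-only regions. The next, in GPC5, had 39 and 6, with aNE open at 2 and aNE_M at 25 of the 39. A stretch with no protein-coding gene beside it had 32 and 0. The fifth, on chromosome 6 around CITED2, had 42 and 10. aNE_M was open at 26 and pNE at 28 of the 42, and aNE at 3.

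On chromosome X, which the comparison left out, 1615 regions were open in aNE_T only and 2042 in aNE_H only. aNE was open at 46.5% and 14% of them, and aNE_M at 45.3% and 53%.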
